A study of Homo sapiens with 18 samples.

Results

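NF-κB is a family of dimeric transcription factors that wait in the cytoplasm, bound by inhibitors of the IκB family, until a kinase cascade marks the inhibitor for destruction. The freed dimers enter the nucleus and switch on, among other genes, those of their own inhibitors and subunits, which is the feedback the pathway is known for. In breast epithelium the pathway drives adhesion, survival and inflammatory genes, and phorbol esters such as PMA reach it through protein kinase C. NFKBIA, NFKBIE and NFKBIZ encode proteins of the IκB family, and TNFAIP3 encodes an enzyme that restrains the pathway. A further 4 encode its subunits (NFKB1, NFKB2, RELA and RELB), and 2 are known targets (BIRC3 and ICAM1). These are the 10 genes described here, of 19970 protein-coding genes in all. A region was taken as theirs when its midpoint lay in the gene's hg38 span (GENCODE 44) or within 2 kb of the gene's most 5′ start. By that rule the 6 DRIP–seq lists held 261 regions at these genes and the 3 ChIP–seq lists held 5, of 774635 regions in all 9 lists.

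DRIP–seq captures DNA:RNA hybrids with the S9.6 antibody, and here it was applied to MCF10A, an immortalised, nontumorigenic breast epithelial line. A3B KO MCF10A cells and WT MCF10A cells each gave 3 libraries: vehicle (DMSO), 2 h in PMA and 6 h in PMA (25 ng/ml). The A3B KO line is a CRISPR clone grown from 1 cell, whose guide cut in both the APOBEC3A and APOBEC3B genes, so clone and genotype cannot be told apart. ChIP–seq used an anti-GFP antibody in MCF10A-TREx-A3B-eGFP cells, which carry an A3B-eGFP transgene switched on by doxycycline (1 µg/ml for 24 h), with doxycycline and PMA for 2 h, with doxycycline and DMSO, or without doxycycline and with DMSO. Each condition was 1 library, so no difference given here has a replicate, an error over replicates or a test, and intervals on fragment counts cover counting error only.

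The DRIP–seq lists ran to between 91894 and 169126 regions, longest at PMA 6 h, and each region is 500 bp around a summit with the authors' fragment pileup and fold enrichment over the local background. Over regions shared by A3B KO and WT, the median ratio of pileups was 0.947 in DMSO, 1.03 at PMA 2 h and 1.08 at PMA 6 h, A3B KO over WT. PMA 6 h over PMA 2 h gave 1.47 in A3B KO and 1.38 in WT, so pileups at shared regions were larger at PMA 6 h in both lines. APOBEC3B itself, the gene cut in the A3B KO line, held 0 regions in all 3 A3B KO lists, against 0, 1 and 2 regions in WT at DMSO, PMA 2 h and PMA 6 h. The paper describes the knockout as a deletion that fuses APOBEC3A and APOBEC3B, so the deleted part can hold no region in A3B KO. APOBEC3B held 6 regions in the A3B-eGFP list with doxycycline and PMA, 5 with doxycycline and DMSO, and 3 without doxycycline. Of 9 basal epithelial markers, 8 or 9 held a region in every DRIP–seq list, and of 8 leukocyte markers 3 to 7 did. Over all coding genes 70.1% to 77.6% did. The 7 of 8 leukocyte markers, in WT at PMA 6 h, were above the 77.6% of that list, so these counts do not identify the cells. Fold enrichment is compared below within a list by rank: each coding gene with a region in both lists is ranked by its highest summit, and the log2 of the rank in the second list named over the rank in the first is above 0 where the gene stands higher in the first. A value of at least 1 or at most -1 is called a higher or a lower place. A gene ranked past the midpoint of the second list named cannot be called lower, because the ranks end too soon.

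The promoters of the genes that are discussed most carry the κB consensus, the DNA word that NF-κB dimers bind. RefSeq (GRCh38.p14) gave 13 promoters for 8 of the 10 genes; NFKBIE and RELB had no entry. In the 250 bases before the start, read on both strands, the consensus was found in 8 of the 13 promoters (6 of the 8 genes), against 6.9% of 34961 promoters of all genes. The stretches that follow are shown because they are where the factor is known to act on NFKBIA, TNFAIP3 and BIRC3 and on the subunit gene NFKB1. They run 5′ to 3′ along transcription, end before any annotated untranslated region, and have the match in capitals.
NFKBIA promoter, chr14:35404750-35404999, minus strand: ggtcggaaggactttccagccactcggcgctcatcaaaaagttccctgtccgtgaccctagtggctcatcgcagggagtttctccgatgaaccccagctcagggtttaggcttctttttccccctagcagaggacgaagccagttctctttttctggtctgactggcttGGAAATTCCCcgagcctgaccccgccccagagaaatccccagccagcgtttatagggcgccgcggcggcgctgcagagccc
TNFAIP3 promoter, chr6:137867009-137867213, plus strand: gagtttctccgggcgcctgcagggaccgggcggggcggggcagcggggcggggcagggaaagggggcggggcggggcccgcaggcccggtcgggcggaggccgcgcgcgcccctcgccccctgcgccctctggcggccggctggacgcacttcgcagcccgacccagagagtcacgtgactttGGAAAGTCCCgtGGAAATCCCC
BIRC3 promoter, chr11:102317234-102317483, plus strand: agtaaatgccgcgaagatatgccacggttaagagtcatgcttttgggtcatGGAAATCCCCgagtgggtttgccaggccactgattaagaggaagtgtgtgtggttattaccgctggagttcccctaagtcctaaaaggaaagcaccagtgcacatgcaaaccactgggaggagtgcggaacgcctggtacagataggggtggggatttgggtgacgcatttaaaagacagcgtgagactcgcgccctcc
NFKB1 promoter, chr4:102501109-102501329, plus strand: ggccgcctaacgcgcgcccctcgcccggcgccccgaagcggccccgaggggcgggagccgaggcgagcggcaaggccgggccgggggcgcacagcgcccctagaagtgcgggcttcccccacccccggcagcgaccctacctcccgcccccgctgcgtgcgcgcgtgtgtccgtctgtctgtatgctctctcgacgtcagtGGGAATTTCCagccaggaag
The match begins 81 bases before the RefSeq start of NFKBIA, 199 bases before that of BIRC3 and 49 bases before that of NFKB1. TNFAIP3 has a pair of matches, beginning 67 and 55 bases before its start. NFKB2 and NFKBIZ hold matches too (4 over 2 NFKB2 promoters, 1 in each of 2 NFKBIZ promoters). ICAM1 and RELA hold none in these windows, which says only that these letters are not there.

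Downstream of those promoters lie DRIP–seq summits, of which 5 recurrent ones with no annotated untranslated region are printed. These hg38 stretches, of 200 bp each around the median midpoint of a recurrent summit, are shown on the coding strand with runs of 3 or more G in capitals, since clustered G on the displaced strand is a known feature of stable hybrids.
NFKBIA, centred in exon 1, chr14:35404374-35404573, minus strand: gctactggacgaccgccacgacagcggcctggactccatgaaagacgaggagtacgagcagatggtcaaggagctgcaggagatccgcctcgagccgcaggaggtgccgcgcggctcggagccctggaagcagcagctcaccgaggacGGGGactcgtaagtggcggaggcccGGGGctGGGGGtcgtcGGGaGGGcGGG
NFKBIA, intron 2, chr14:35403356-35403555, minus strand: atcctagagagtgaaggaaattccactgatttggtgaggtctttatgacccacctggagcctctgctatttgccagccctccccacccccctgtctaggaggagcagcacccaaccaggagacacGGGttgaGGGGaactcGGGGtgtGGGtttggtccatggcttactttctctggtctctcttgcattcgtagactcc
TNFAIP3, intron 1, chr6:137869249-137869448, plus strand: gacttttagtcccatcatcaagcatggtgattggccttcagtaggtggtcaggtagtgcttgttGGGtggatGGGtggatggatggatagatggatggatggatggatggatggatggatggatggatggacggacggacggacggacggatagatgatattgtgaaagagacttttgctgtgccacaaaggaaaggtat
NFKBIZ, centred in intron 11, chr3:101857377-101857576, plus strand: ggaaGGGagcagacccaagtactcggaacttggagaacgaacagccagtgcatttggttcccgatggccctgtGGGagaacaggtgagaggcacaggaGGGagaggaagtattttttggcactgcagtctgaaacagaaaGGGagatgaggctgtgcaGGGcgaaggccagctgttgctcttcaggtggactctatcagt
BIRC3, intron 1, chr11:102317604-102317803, plus strand: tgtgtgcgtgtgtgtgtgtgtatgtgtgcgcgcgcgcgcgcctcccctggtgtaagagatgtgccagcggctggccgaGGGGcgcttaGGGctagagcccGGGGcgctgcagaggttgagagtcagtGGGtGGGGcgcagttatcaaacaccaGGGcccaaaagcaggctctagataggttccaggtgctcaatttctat
The NFKBIA stretch at 276 bp from the start holds 6 such runs at 69.5% GC, and the BIRC3 stretch 6 at 61.0% GC. The TNFAIP3 stretch is a tandem repeat: it holds GGAT or GGAC 19 times, with 9 unbroken copies of GGAT, and a GC skew (G minus C over G plus C on the coding strand) of 0.55. The NFKBIZ stretch had a skew of 0.30 and 5 runs. No stretch printed here holds the κB consensus.

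NFKBIA (ENSG00000100906.12, chr14:35401079-35404749, minus strand) encodes IκBα, the inhibitor that NF-κB resynthesises first. It had the highest fold enrichment of the 10 genes in every DRIP–seq list. Its highest fold enrichment was 20.3 in A3B KO in DMSO, 39.3 at PMA 2 h and 23.2 at PMA 6 h, against 9.69, 33.6 and 17.9 in WT. That put it in the top 1.43%, 0.491% and 0.688% of genes holding a region in A3B KO, and in the top 9.34%, 0.339% and 1.36% in WT. PMA 2 h gave it a higher place than DMSO in both lines, with a log2 rank ratio of 1.51 in A3B KO and 4.75 in WT. Between the lines, A3B KO had the higher place in DMSO (2.68). At PMA 2 h the ratio was -0.58, and 0.53 when genes were ranked by pileup. At PMA 6 h it was 0.99, just under the threshold, and 1.11 by pileup.

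The gene is 3.7 kb long and its regions fell at 5 recurrent places, 4 of which were in all 6 lists. In intron 1, about 781 bp from the start, fold enrichment was 16.8, 39.3 and 23.2 in A3B KO at DMSO, PMA 2 h and PMA 6 h, against 9.69, 33.6 and 11.9 in WT. The intron 2 place gave 20.3, 23.1 and 16.2 in A3B KO, against 9.26, 24.2 and 6.27 in WT. Towards the 3′ end, about 3396 bp from the start and past the end of the main (MANE) transcript, the values were 11.5, 25.3 and 14.4 in A3B KO and 7.18, 10.1 and 9.57 in WT. These 3 places, and 1 more in exon 5 (22.9 in A3B KO and 10.1 in WT at PMA 2 h), were at their highest at PMA 2 h in both lines, and A3B KO was above WT at each time except at PMA 2 h in intron 2. The place in exon 1 was the exception in timing: 7.28 in DMSO and 19.8 at PMA 6 h in A3B KO with no separate summit at PMA 2 h, and 8.34, 15.3 and 17.9 in WT. The intron 1 summit had 275 fragments in A3B KO at PMA 2 h (95% Poisson interval 243 to 309) and 168 in WT (144 to 195).

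**Figure D1:**
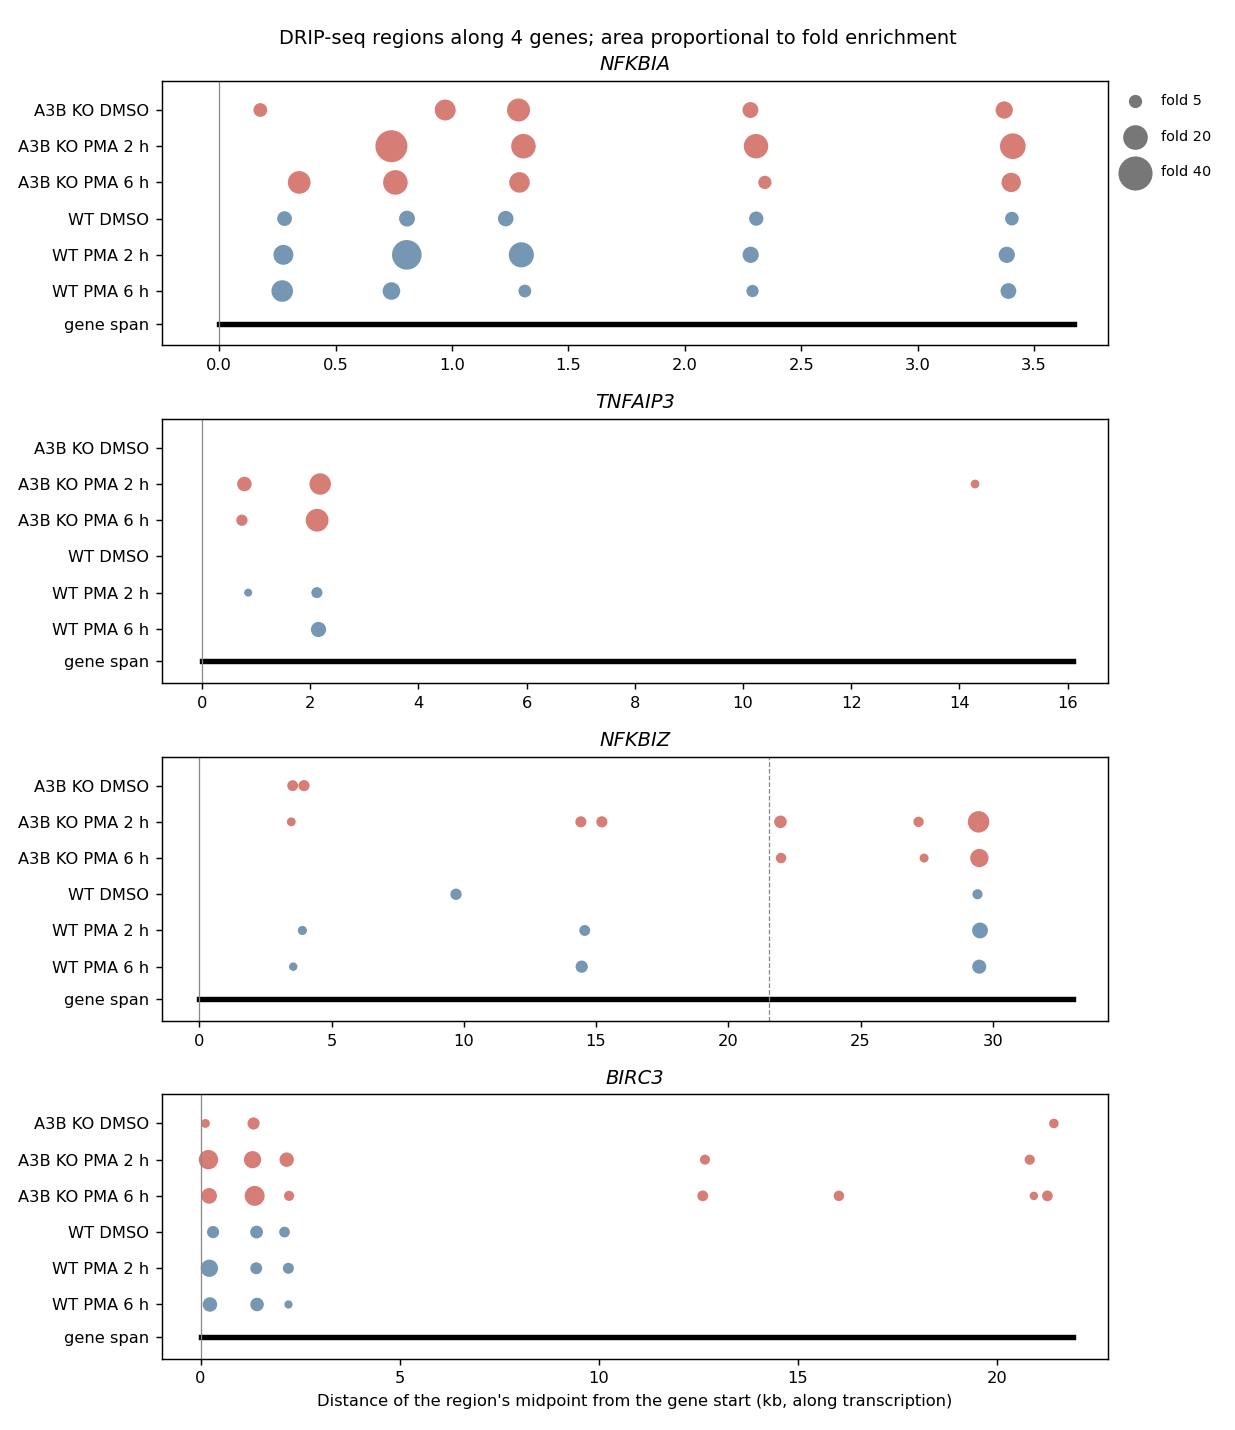
Regions of the 6 DRIP–seq lists along NFKBIA, TNFAIP3, NFKBIZ and BIRC3. The x axis is the distance of each region's midpoint from the gene start in kb, rows are libraries (A3B KO in red above WT in blue), the area of a point is proportional to fold enrichment, the black bar is the gene span and the dashed line marks the main transcript start of NFKBIZ; NFKBIA has regions at 4 places in every row and at the place nearest the start in all but A3B KO PMA 2 h, and TNFAIP3 has none in either DMSO row.

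The 5 coding genes whose ranks over the 6 DRIP–seq lists were nearest to those of NFKBIA, by Euclidean distance of log2 rank among 11469 genes with a region in all 6, were KLF7 (1.44), BNIP2 (1.78), ITGA3 (1.84), ANXA2 (1.88) and TSC22D1 (1.92). KLF7, for example, ranked 191, 84 and 69 in A3B KO at DMSO, PMA 2 h and PMA 6 h, against 597, 37 and 307 in WT, where NFKBIA ranked 203, 72 and 105 in A3B KO and 1282, 48 and 210 in WT.

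TNFAIP3 (ENSG00000118503.18, chr6:137867214-137883314, plus strand) encodes a ubiquitin-editing enzyme that shuts the pathway down upstream of the IκB kinases. It held no region in DMSO in either line, and 3 and 2 regions in A3B KO at PMA 2 h and PMA 6 h, against 2 and 1 in WT. The highest fold enrichment was 17.6 in A3B KO and 4.72 in WT at PMA 2 h, and 19.9 in A3B KO and 8.90 in WT at PMA 6 h. Each of these maxima was at the intron 1 repeat printed above, about 2134 bp from the start. The fragment pileup there was 79 in A3B KO (62.5 to 98.5) and 24 in WT (15.4 to 35.7) at PMA 2 h. It was 135 in A3B KO (113 to 160) and 46 in WT (33.7 to 61.4) at PMA 6 h. The counting intervals of the lines were apart at both times, and the log2 rank ratio of A3B KO over WT was 5.19 at PMA 2 h and 5.27 at PMA 6 h. These were the largest A3B KO over WT ratios among the 10 genes, and both lay past the 95th percentile of all coding genes, 1.81 and 1.83.

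A weaker summit about 785 bp from the start, also in intron 1, had 8.08 and 4.88 in A3B KO at PMA 2 h and PMA 6 h, and 2.48 at PMA 2 h alone in WT. The same order was seen just outside the gene: a summit 331 to 342 bp past its end, beyond the rule and so not counted, had 17.7 and 15.2 in A3B KO, against 6.73 and 7.97 in WT. WAKMAR2, a noncoding gene on the opposite strand, starts within 2 kb of both intron 1 places, and the region lists carry no strand, so hybrids of the genes cannot be told apart. Whether the repeat in the sequence plays a part in the size of the signal was not tested.

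NFKBIZ (ENSG00000144802.11, chr3:101827991-101861022, plus strand) encodes IκBζ, a nuclear member of the family that acts as a cofactor of NF-κB at secondary response genes. The highest fold enrichment of NFKBIZ was 4.78, 17.7 and 12.8 in A3B KO at DMSO, PMA 2 h and PMA 6 h, against 4.95, 9.62 and 7.61 in WT. PMA 2 h stood above DMSO in both lines, by 5.13 in A3B KO and 2.44 in WT, and PMA 6 h stood below PMA 2 h in both, by -1.03 in A3B KO and -2.23 in WT. That lower place was lost in both lines when genes were ranked by pileup (-0.58 in A3B KO and -0.48 in WT). After PMA the top summit was in intron 11, about 29485 bp from the most 5′ start. In DMSO it was elsewhere, at 3960 bp in A3B KO and 9706 bp in WT, in or beside NXPE3. The ratios over DMSO therefore compare different places. In DMSO the intron 11 place had no region in A3B KO and 3.96 in WT. The pileup at the intron 11 summit was 69 in A3B KO (53.7 to 87.3) and 41 in WT (29.4 to 55.6) at PMA 2 h. It was 83 in A3B KO (66.1 to 103) and 55 in WT (41.4 to 71.6) at PMA 6 h. The intervals of the lines overlap at both times. A3B KO stood above WT by 2.57 at PMA 2 h and 3.82 at PMA 6 h, but not in DMSO (-0.08). A further place, about 21982 bp from the most 5′ start and close to the start of the main transcript (21523 bp), had 6.08 and 4.17 in A3B KO at PMA 2 h and PMA 6 h and was absent from the 3 WT lists. The regions between 3 and 16 kb also lie in or beside NXPE3, a neighbour on the same strand.

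NFKBIE (ENSG00000146232.17, chr6:44258166-44265788, minus strand) encodes IκBε, a slower inhibitor of the same family. It had no region in DMSO and weak ones after PMA, at most 5.02. The highest fold enrichment was 3.31 and 3.47 in A3B KO at PMA 2 h and PMA 6 h, against 2.56 and 5.02 in WT. These are among the lowest places of all genes holding a region, 96.0% and 94.0% of the way down in A3B KO and 99.5% and 84.3% in WT. The log2 rank ratio of A3B KO over WT was 0.03 at PMA 2 h and -0.14 at PMA 6 h. At PMA 2 h the maxima lay at different places, 1644 bp from the start in A3B KO and 7258 bp in WT, in or beside SLC35B2.

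**Figure D2:**
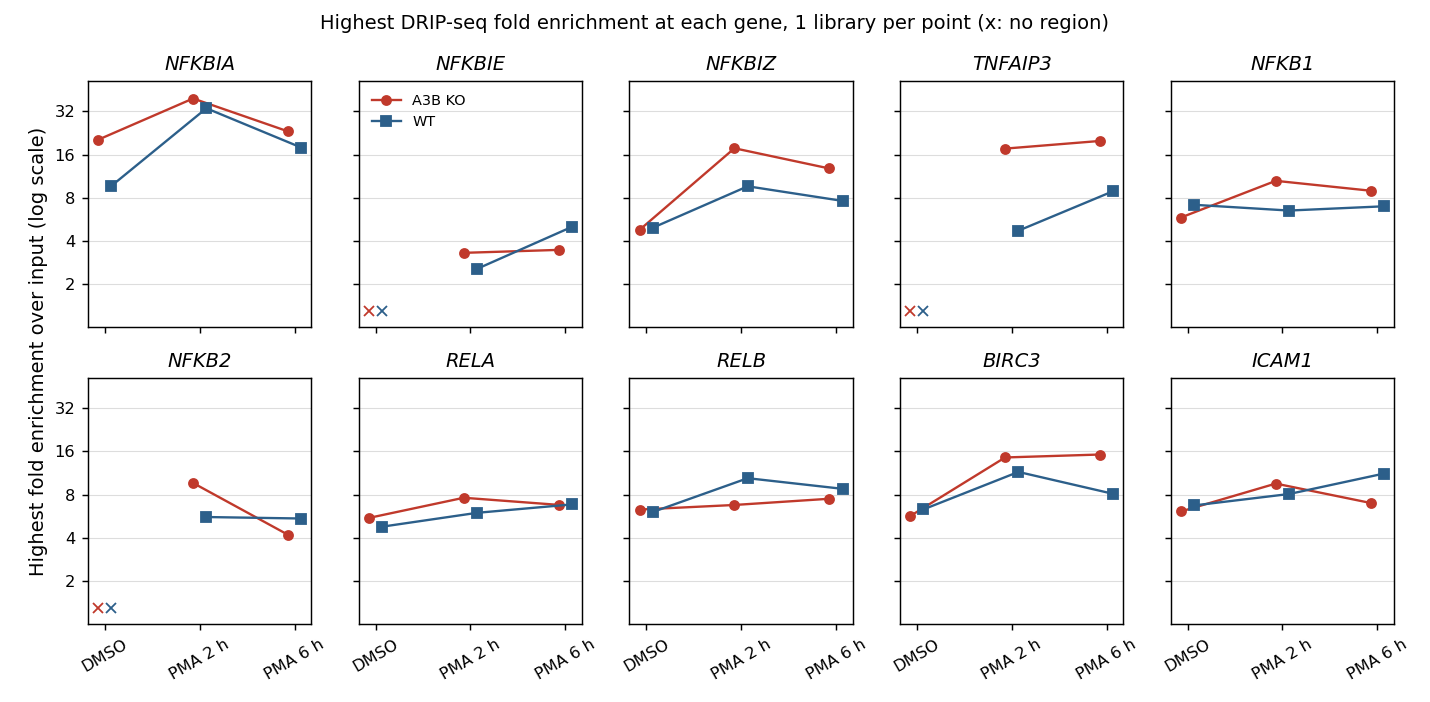
Highest DRIP–seq fold enrichment at each of the 10 genes (y axis, log scale) in DMSO, PMA 2 h and PMA 6 h (x axis), for A3B KO (red circles) and WT (blue squares), 1 library per point and no error bars. Crosses mark lists with no region; NFKBIA, NFKBIZ, TNFAIP3 and BIRC3 reach above 14 in A3B KO after PMA, and the 4 subunit genes stay at or below 10.5 in every list.

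Among the subunit genes the highest value in any list was 10.5, at NFKB1. This gene (ENSG00000109320.14, chr4:102501330-102617302, plus strand) encodes a precursor that yields a DNA-binding subunit without a transactivation domain. NFKB1 reached a fold enrichment of 5.83, 10.5 and 8.96 in A3B KO at DMSO, PMA 2 h and PMA 6 h, against 7.15, 6.52 and 6.98 in WT. PMA 2 h stood above DMSO in A3B KO (2.00), while in WT the ratio was -0.69, and 0.28 by pileup. A3B KO stood above WT at PMA 2 h (1.93) and PMA 6 h (1.36). The summit concerned lies in intron 1, about 737 bp from the start, with 3.62, 10.5 and 8.96 in A3B KO, against 7.15 and 6.52 in WT at DMSO and PMA 2 h and no region there at PMA 6 h. Its pileup at PMA 2 h was 70 in A3B KO (54.6 to 88.4) and 36 in WT (25.2 to 49.8). A noncoding gene on the opposite strand starts beside NFKB1, so this place too belongs to more than 1 gene.

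NFKB2 (ENSG00000077150.21, chr10:102394110-102402524, plus strand) encodes the precursor at the centre of the noncanonical branch. No region was called in DMSO in either line. PMA 2 h gave 5 regions in A3B KO and 2 in WT, and PMA 6 h gave 4 in A3B KO and 1 in WT. The highest fold enrichment was 9.63 in A3B KO and 5.58 in WT at PMA 2 h, and 4.20 in A3B KO and 5.45 in WT at PMA 6 h. A3B KO stood above WT at PMA 2 h (1.75) but not at PMA 6 h (-0.12). The ratios of NFKB2 compare maxima at different places. At PMA 2 h these were 1032 bp from the start in A3B KO and 549 bp in WT. At PMA 6 h they were 2300 bp in A3B KO and 5256 bp in WT. Within A3B KO, PMA 6 h stood below PMA 2 h (-2.22), and the ratio in WT was -0.32.

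RELA (ENSG00000173039.20, chr11:65653599-65663090, minus strand), the transactivating subunit of the canonical dimer, had no called change by rank of fold enrichment. RELA reached a fold enrichment of 5.50, 7.60 and 6.78 in A3B KO, against 4.78, 5.97 and 6.83 in WT, and the 7 rank ratios lay between -0.37 and 0.42. Ranked by pileup, A3B KO stood above WT at PMA 2 h (1.48) and PMA 6 h (1.83), and PMA 2 h above DMSO in A3B KO (1.05). By −log10 q the A3B KO over WT ratios were 1.07 and 1.09. RELA held 2, 6 and 2 regions in A3B KO, against 1, 3 and 3 in WT. The place at about 7970 bp, in intron 10, was the only one in all 6 lists.

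RELB (ENSG00000104856.15, chr19:45001461-45038192, plus strand), the transactivating partner in the noncanonical dimer, was the gene that stood lower in A3B KO at PMA 2 h (-2.81). Its highest fold enrichment was 6.29, 6.77 and 7.48 in A3B KO, against 6.05, 10.4 and 8.77 in WT. PMA 2 h stood above DMSO in WT (2.55), while the ratio in A3B KO was -0.36. The WT summit at PMA 2 h was in intron 5, about 22212 bp from the start, with 10.4 and 7.36 in WT at PMA 2 h and PMA 6 h; A3B KO had no region there at PMA 2 h and 7.48 at PMA 6 h. The number of regions after PMA went the other way, with 3, 13 and 8 in A3B KO at DMSO, PMA 2 h and PMA 6 h and 4, 10 and 7 in WT. A summit 2206 to 2258 bp before the start, just outside the rule, had 7.73 in A3B KO and 5.97 in WT at PMA 2 h, so in A3B KO the strongest nearby summit at that time was not counted.

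BIRC3 (ENSG00000023445.17, chr11:102317484-102339403, plus strand) encodes an inhibitor of apoptosis that acts as a ubiquitin ligase in the pathway and is induced by it. Its highest fold enrichment was 5.67, 14.5 and 15.2 in A3B KO at DMSO, PMA 2 h and PMA 6 h, against 6.31, 11.5 and 8.09 in WT. PMA 2 h stood above DMSO by 3.97 in A3B KO and 3.21 in WT. The ratio of PMA 6 h over PMA 2 h was 0.71 in A3B KO and -3.46 in WT, and A3B KO stood above WT at PMA 6 h by 4.61. Ranked by pileup these were -0.97 in A3B KO, -1.45 in WT and 1.06, so the direction in A3B KO turned. At PMA 2 h the ratio between the lines was 0.40.

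A pair of intron 1 places in all 6 lists carried this. About 219 bp from the start, fold enrichment was 3.05, 14.5 and 9.41 in A3B KO, against 5.70, 11.5 and 8.09 in WT. About 1379 bp from the start it was 5.67, 11.4 and 15.2 in A3B KO, against 6.31, 5.45 and 7.03 in WT. The first place was highest at PMA 2 h in both lines, and the second was above 10 only in A3B KO after PMA. The pileup at the highest summit at PMA 6 h was 83 in A3B KO (66.1 to 103) at the second place and 63 in WT (48.4 to 80.6) at the first, and at the second place WT had 41. Regions further along the gene, beyond 12 kb, were called in A3B KO alone. A noncoding gene on the opposite strand overlaps the first part of BIRC3, intron 1 included.

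ICAM1 (ENSG00000090339.9, chr19:10271093-10286615, plus strand) encodes an adhesion receptor for leukocyte integrins and is a classical target. It held the most regions of the 10 genes, with 7, 17 and 11 in A3B KO and 5, 14 and 9 in WT, spread over 21 places of which 18 were intronic. Its highest fold enrichment was 6.10, 9.54 and 6.99 in A3B KO, against 6.72, 8.07 and 11.2 in WT. PMA 2 h stood above DMSO in A3B KO (1.21), and the ratio in WT was 0.44. A3B KO stood below WT at PMA 6 h (-1.81), a lower place that was lost by pileup (-0.20). The WT value at PMA 6 h came from a summit 1998 bp before the start, and a WT summit at PMA 2 h lay 1965 bp before it (6.95); both are just inside the 2 kb limit and neither has a counterpart in A3B KO. LIMASI, a noncoding gene on the opposite strand, overlaps ICAM1 along most of its length.

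**Figure D3:**
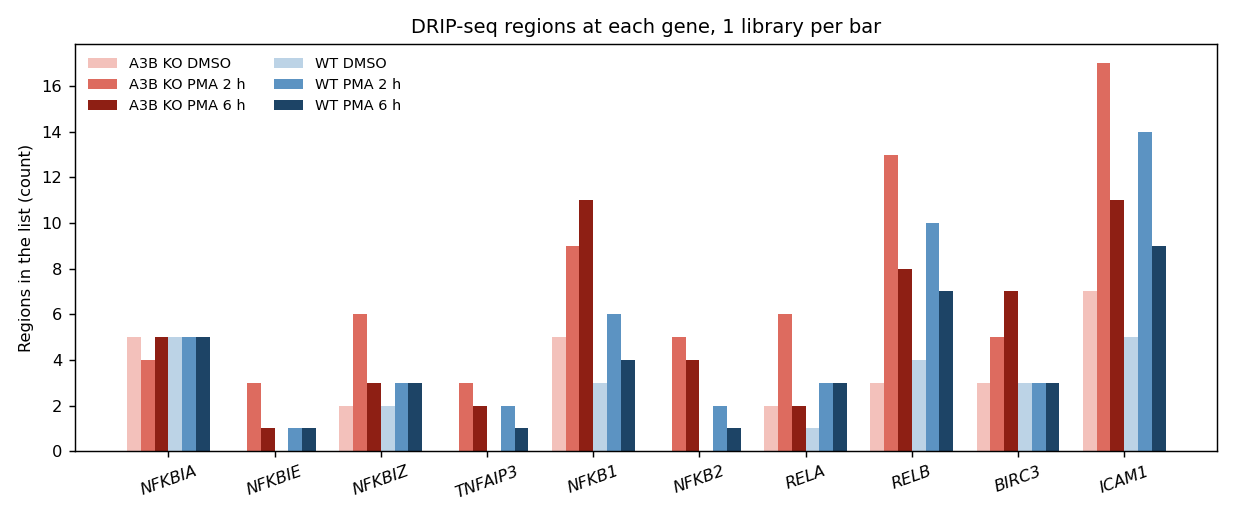
Number of DRIP–seq regions at each of the 10 genes (y axis, count) in the 6 lists, A3B KO in red and WT in blue, darker with time after PMA, 1 library per bar. ICAM1 and RELB have their tallest bars at PMA 2 h in both lines, up to 17 and 13 in A3B KO, and NFKBIE, TNFAIP3 and NFKB2 have none in DMSO.

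In all, the 10 genes held 27 regions in DMSO, 71 at PMA 2 h and 54 at PMA 6 h in A3B KO, against 23, 49 and 37 in WT. All 10 held a region in each of the 4 PMA lists and 7 held one in each DMSO list. Over all coding genes the share holding a region was 71.9%, 73.5% and 77.2% in A3B KO at DMSO, PMA 2 h and PMA 6 h, and 70.1%, 70.8% and 77.6% in WT. The 10 genes, and the other pathway genes below, were chosen with earlier results of these data known. Shares over all coding genes are therefore given for scale, here and below, and not as support for an excess. The ratio of regions at the genes, PMA 2 h over DMSO, was 2.63 in A3B KO and 2.13 in WT, where that of the whole lists was 1.22 in each line. More regions at PMA 2 h than in DMSO were held by 9 of the 10 genes in A3B KO, where 38.3% of all coding genes did so, and by 8 in WT, where 35.2% did. At PMA 6 h the lists were longer still, with ratios over PMA 2 h of 1.40 in A3B KO and 1.48 in WT, while the regions at the 10 genes were fewer, with ratios of 0.761 in A3B KO and 0.755 in WT. Only 3 of the genes in A3B KO and 0 in WT held more regions at PMA 6 h than at PMA 2 h, where 48.9% and 52.8% of coding genes did. Against WT, A3B KO held more regions at 3 of the 10 genes in DMSO, 9 at PMA 2 h and 6 at PMA 6 h, and over all coding genes the shares were 32.7%, 37.3% and 35.1%.

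Regions at places with no region in the earlier list were counted next. In A3B KO, 49 of 71 regions at PMA 2 h overlapped no region of the DMSO list (69.0%, Wilson interval 57.5 to 78.6), against 48.3% over the whole list. In WT it was 27 of 49 (55.1%, 41.3 to 68.1), near the 48.6% of the whole list. Few were new at PMA 6 h: 9 of 54 in A3B KO (16.7%, 9.02 to 28.7) overlapped none at PMA 2 h, against 46.4% of the whole list, and 9 of 37 in WT (24.3%, 13.4 to 40.1), against 47.6%. Between the lines, 8 of 27 A3B KO regions in DMSO (29.6%), 31 of 71 at PMA 2 h (43.7%) and 23 of 54 at PMA 6 h (42.6%) overlapped none in WT, where the whole lists gave 44.3%, 41.3% and 35.7%. Regions at 1 gene are neighbours and share a library, so these intervals are too narrow as a statement about genes.

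NFKBIE, TNFAIP3 and NFKB2 had no rank in DMSO and so enter no comparison with it. By rank, 5 of the 7 genes with a region in both lists had a higher place at PMA 2 h than in DMSO in A3B KO and none a lower one, where 16.7% of all 13233 genes were higher and 16.3% lower. In WT it was 4 of 7 higher and none lower, where 18.0% of 12647 genes were higher and 17.0% lower. In the A3B KO DMSO list NFKBIZ (10103), NFKB1 (7235), RELA (8237) and BIRC3 (7713) ranked past the midpoint of the 13233 genes. In the WT DMSO list NFKBIZ (9243), RELA (9629) and RELB (6555) did so among 12647. These genes could not be called lower, so the lack of lower places was partly fixed beforehand. The median ratio over the 7 genes was 1.51 in A3B KO and 2.44 in WT, and over all genes 0.014 and 0.023. NFKBIA, NFKBIZ and BIRC3 were higher in both lines, NFKB1 and ICAM1 in A3B KO, and RELB in WT. When PMA 6 h was set against PMA 2 h, 1 of 10 genes was higher and 4 lower in A3B KO, where 14.2% and 13.4% of genes were. The 1 was TNFAIP3, at exactly 1.00, and the 4 were NFKBIZ, NFKB1, NFKB2 and ICAM1. In WT 0 were higher and 4 lower (NFKBIA, NFKBIZ, RELB and BIRC3), where 14.9% and 14.1% of genes were. By a stricter measure, the log2 ratio of fold enrichment less its median over all genes, NFKBIZ (1.63) and BIRC3 (1.10) stayed past 1 at PMA 2 h against DMSO in A3B KO, and NFKBIA (1.68) in WT. Of all genes 2.61% were higher by this measure in A3B KO and 2.74% in WT.

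**Figure D4:**
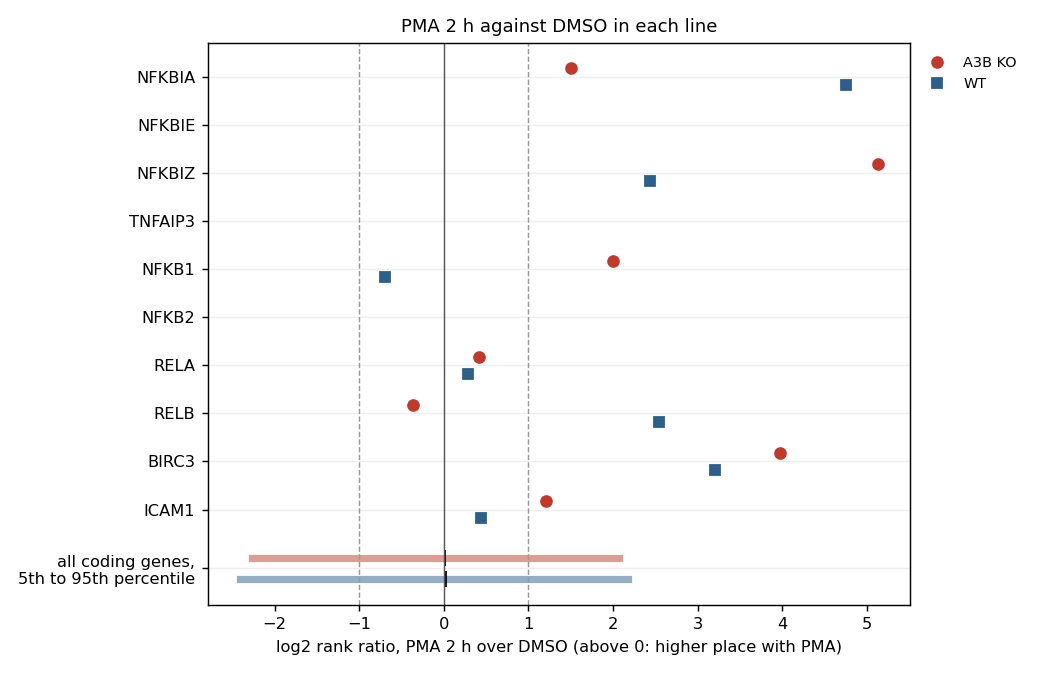
Log2 rank ratio of the highest fold enrichment, PMA 2 h over DMSO (x axis), for the 7 genes with a region in both lists, in A3B KO (red circles) and WT (blue squares); bars at the bottom span the 5th to 95th percentile of all coding genes and dashed lines mark -1 and 1. NFKBIZ at 5.13 in A3B KO and NFKBIA at 4.75 in WT lie furthest to the right.

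Between the lines in DMSO, 1 of 7 genes, NFKBIA, had a higher place in A3B KO and 0 a lower one, where 13.2% and 13.0% of genes did. NFKBIZ (9442), RELA (9841) and RELB (6656) ranked past the midpoint of 13020 genes in WT and could not be called lower. At PMA 2 h, 4 of 10 genes were higher in A3B KO (NFKBIZ, TNFAIP3, NFKB1 and NFKB2) and 1 was lower (RELB), where 13.6% and 13.9% of genes were. At PMA 6 h it was 4 of 10 higher (NFKBIZ, TNFAIP3, NFKB1 and BIRC3) and 1 lower (ICAM1), where 13.4% and 13.4% of genes were. By the log2 ratio of fold enrichment less its median, TNFAIP3 stayed past 1 at PMA 2 h (1.75) and PMA 6 h (1.32), BIRC3 at PMA 6 h (1.07) and NFKBIA in DMSO (1.07), and none of the 10 genes was past -1. Of all genes 1.41% were higher by that measure in DMSO, 1.63% at PMA 2 h and 1.75% at PMA 6 h. These comparisons share libraries with those of PMA against DMSO, so the values are given side by side and not as separate support.

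**Figure D5:**
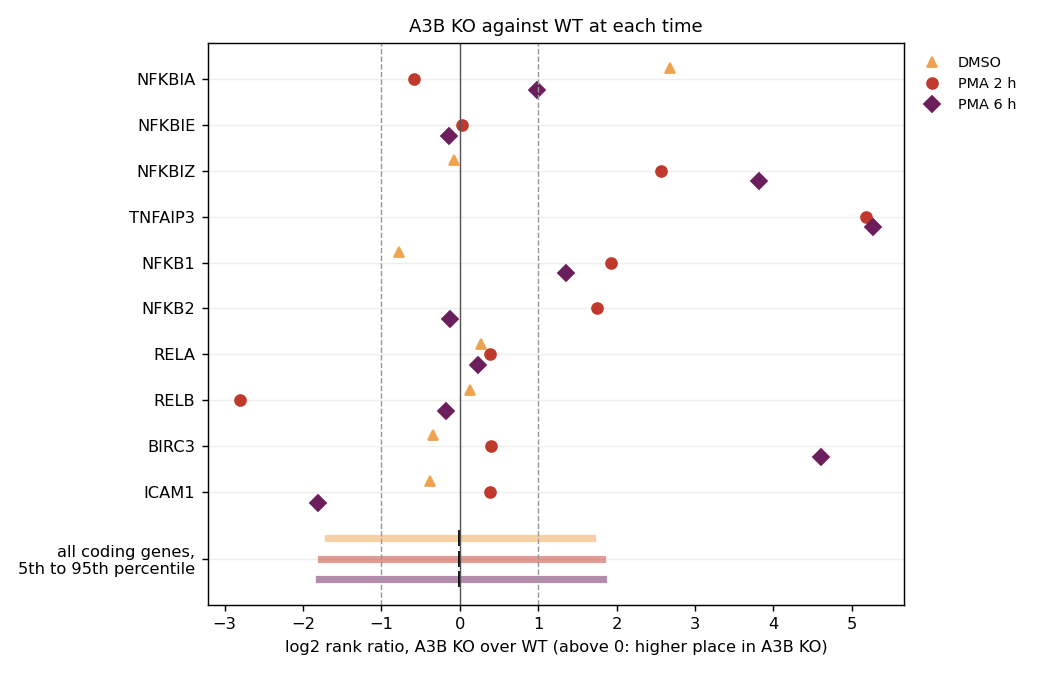
Log2 rank ratio of the highest fold enrichment, A3B KO over WT (x axis), in DMSO (triangles), at PMA 2 h (circles) and at PMA 6 h (diamonds), for each gene with a region in both lists; bars at the bottom span the 5th to 95th percentile of all coding genes. TNFAIP3 lies at 5.19 and 5.27 and NFKBIZ at 2.57 and 3.82 after PMA, RELB at -2.81 at PMA 2 h and ICAM1 at -1.81 at PMA 6 h.

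Of 40 other genes of the pathway, 32 were ranked in both the PMA 2 h and the DMSO list of A3B KO. Of these, 8 had a higher place at PMA 2 h (25.0%) and 1 a lower one (3.12%). In WT 7 of 35 were higher (20.0%) and 2 lower (5.71%). Over all genes 16.7% were higher and 16.3% lower in A3B KO, and 18.0% and 17.0% in WT. Here too, a gene past the midpoint of the DMSO list could not be called lower. TNIP1, which encodes a partner of the TNFAIP3 protein, had 10.1, 50.3 and 18.3 in A3B KO at DMSO, PMA 2 h and PMA 6 h, against 5.24, 29.7 and 16.5 in WT. Its PMA 2 h over DMSO ratio was 5.02 in A3B KO and 7.15 in WT. ZC3H12A, an RNA endonuclease that degrades inflammatory mRNAs, had 6.36, 26.5 and 9.20 in A3B KO, against 6.31, 15.5 and 6.38 in WT, with ratios of 5.41 in A3B KO and 4.69 in WT. BCL3, a nuclear IκB relative, had ratios of 1.29 in A3B KO and 1.60 in WT, and BCL10, an adaptor between protein kinase C and the IκB kinases, 1.89 in A3B KO and 1.00 in WT. TNFRSF1B, a TNF receptor, had ratios of 4.73 in A3B KO and 2.00 in WT, and fold enrichment of 5.00, 16.4 and 4.08 in A3B KO, against 10.4, 14.9 and 18.6 in WT. Of 36 ranked at both PMA times in A3B KO, 11 stood lower at PMA 6 h (30.6%, where 13.4% of all genes did), BCL10, ZC3H12A and TNIP1 among them, and 5 of 37 did in WT (13.5%, against 14.1%). No gene of the 10 kinases of the list was higher or lower in WT at PMA 2 h, and 2 of 6 ranked were higher in A3B KO. Between the lines at PMA 2 h, 4 of 35 were higher in A3B KO (11.4%) and 2 lower (5.71%), where 13.6% and 13.9% of all genes were.

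The κB consensus stood in a larger share of the regions at the 10 genes than of regions at all coding genes in each DRIP–seq list, with no test. In the central 200 bp of each region this held in 5 of the 6 lists, WT at PMA 6 h having 2.70% at the 10 genes and 2.77% at all coding genes. It was found in 6 of 27, 12 of 71 and 9 of 54 regions in A3B KO at DMSO, PMA 2 h and PMA 6 h (22.2%, 16.9% and 16.7%), against 7.49%, 7.12% and 5.87% of regions at all coding genes. In WT it was found in 4 of 23, 10 of 49 and 4 of 37 (17.4%, 20.4% and 10.8%), against 7.61%, 6.47% and 6.28%. ICAM1 held 17 and NFKBIA 11 of the 45 matching regions, some of them the same place called in several lists, and TNFAIP3, BIRC3 and NFKBIE held 0 of 8, 24 and 6. Median GC was 50.0% at the 10 genes and 46.8% at all coding genes in A3B KO at PMA 2 h, and 50.4% and 46.6% in WT. Median GC skew was 0.049 and 0.022 in A3B KO, and 0.048 and 0.018 in WT.

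NFKBIA was the only one of the 10 genes with an A3B-eGFP region. ChIP–seq gave it 4 regions with doxycycline and PMA, 1 with doxycycline and DMSO, and 0 without doxycycline, where 7.81%, 9.67% and 1.64% of all coding genes held one. More regions with PMA than with DMSO, both with doxycycline, were held by 5.24% of coding genes. The strongest summit was 782 bp from the start with PMA (fold enrichment 2.71, 65 fragments, 50.2 to 82.8) and 734 bp with DMSO (2.50, 45 fragments, 32.8 to 60.2), both in intron 1, at the place of the strongest DRIP–seq summit. The counting intervals overlap. Among coding genes holding an A3B-eGFP region, NFKBIA stood 55.7% of the way down by fold enrichment with PMA and 65.4% with DMSO. The other 3 with PMA were at 1248, 1480 and 3637 bp, with fold enrichment of 2.06, 2.27 and 2.62. All 4 overlapped a DRIP–seq region of WT at PMA 2 h, and the 1 with DMSO overlapped one of WT in DMSO, where 42.7% and 43.7% of all A3B-eGFP regions did. WT DRIP–seq regions line nearly all of this short gene. A region almost anywhere in it would overlap one by 1 bp, so these overlaps say little about shared places. At an overlap of at least 250 bp, 3 of the 4 and the 1 remained, where 27.0% and 27.8% of all A3B-eGFP regions did. None of the 5 overlapped a region of the list without doxycycline. At a −log10 q of at least 5, 1 remained with PMA and 0 with DMSO, and with the 3 lists set to equal length by fold enrichment none did. The cells of the ChIP–seq overexpress the tagged protein and are not the cells of the DRIP–seq, and PMA without doxycycline was not among the samples. Just outside the rule, a further A3B-eGFP region with PMA lay 756 bp past the end of NFKBIA, with a fold enrichment of 3.83 and 44 fragments, a higher fold than any of the 4 counted. NFKBIE had a A3B-eGFP region 820 bp past its end with PMA (2.39), outside the rule and within 2 kb of SLC35B2. Of the 40 other pathway genes, 6 held an A3B-eGFP region with doxycycline and PMA, 8 with doxycycline and DMSO and 1 without doxycycline.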

How the data were processed

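The 9 region lists come from 18 libraries, 9 immunoprecipitates and their 9 inputs, with immunoprecipitations pooled before sequencing, so each condition is 1 library. Per the sample notes and the methods, the authors trimmed reads with Cutadapt 1.13, aligned them to hg38 with STAR 2.6.1d, kept proper pairs (SAMtools 1.3.1), removed duplicates with Picard and excluded-region overlaps with bedtools 2.29.2, and called summits with MACS2 against each input at a q of 0.01. The notes name MACS2 2.2.6, while the methods name an earlier version run in paired-end mode. Which of them made the deposited lists is not settled. The deposited pileup is a signal, the number of fragments over a summit (region names also mention a fixed extension of reads), not scaled between libraries. The deposited fold enrichment is a ratio to the local background. The deposited −log10 q is the caller's significance and was at least 2 in every list. Read depth was not used here, since the lists do not give it.

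Regions were assigned by midpoint to GENCODE 44 genes on chromosomes 1 to 22 and X with Python 3.11.15 and pandas 2.3.3. Whether the deposited starts count from 0 or from 1 is not stated, which moves a position by 1 bp. A shared region overlaps by at least 1 bp. Places are regions of the 6 DRIP–seq lists grouped along a gene, given by their median distance from the most 5′ start. Poisson and Wilson intervals are at 95%. No test was possible with 1 library per condition. The ranking was tried on simulated copies of 1 list with planted changes and small added noise. That does not show how it behaves at the noise between these libraries. The members, the list of 40 pathway genes and the marker lists were chosen with earlier results of these data known. All 10 genes are named; a further pathway gene is named where it passed the threshold the same way in both lines at PMA 2 h against DMSO, up to 4 in each group of the list, and other genes named are neighbours or were found by likeness to NFKBIA. Alternatives changed the ranking value, the window, the list length, the q threshold, the merging of summits, the overlap and the width searched for κB.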

Additional observations from a re-analysis of the deposited data

Results flagged for a closer look

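At 4 of the 10 genes the log2 rank ratio of a PMA comparison had opposite signs in the 2 lines. With 1 library per condition these differences were not tested. The share of all coding genes with opposite signs was not counted, so whether 4 of 10 is unusual cannot be said. For PMA 2 h over DMSO, NFKB1 had 2.00 in A3B KO and -0.69 in WT, and RELB had -0.36 in A3B KO and 2.55 in WT. For PMA 6 h over PMA 2 h, RELB had 0.29 in A3B KO and -2.37 in WT. BIRC3 had 0.71 in A3B KO and -3.46 in WT, and ICAM1 had -1.41 in A3B KO and 0.77 in WT. Ranked by pileup, 2 of these pairs no longer had opposite signs: NFKB1 came to 0.28 in WT, and BIRC3 to -0.97 in A3B KO (-0.32 by −log10 q). ICAM1 came to 0.00 in A3B KO by pileup, and RELB at PMA 6 h over PMA 2 h to -0.08 in A3B KO with summits within 2 kb of the start alone. The WT value of ICAM1 at PMA 6 h is from the summit 1998 bp before the start, at the edge of the 2 kb window.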

How the results depend on the processing

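Of 144 recomputed counts 109 stayed within 1.5 times the value given, and of 328 recomputed ratios of single genes 17 had the opposite sign, 1 of them at a value called by rank of fold enrichment and 16 at values not called. The causes of the changes were not tested, apart from those that follow from fewer regions or genes. With lists of equal length the 10 genes held 27 regions in A3B KO and 24 in WT at PMA 6 h, and 0 A3B-eGFP regions with doxycycline and PMA and 0 with doxycycline and DMSO. With summits of a peak merged they held 45 regions in A3B KO at PMA 2 h and 2 A3B-eGFP regions with doxycycline and PMA. At a −log10 q of at least 5 they held 1 A3B-eGFP region with doxycycline and PMA and 0 with doxycycline and DMSO, and 5 WT regions at PMA 6 h overlapped none at PMA 2 h. With summits within 2 kb of the start alone, 2 genes were higher in WT at PMA 2 h against DMSO, 1 in WT and 0 in A3B KO at PMA 6 h against PMA 2 h, and 2 in A3B KO against WT at PMA 6 h (between 12.1% and 17.2% of all genes); 0 were lower in A3B KO against WT at PMA 2 h (11.4%), and the TNFAIP3 ratio at PMA 6 h over PMA 2 h in A3B KO turned to -1.25. With the log2 ratio of fold enrichment less its median, which is past 1 in far fewer genes, 2 genes were higher in A3B KO and 1 in WT at PMA 2 h against DMSO. At PMA 6 h against PMA 2 h it gave 0 higher and 1 lower in A3B KO (2.05% and 2.72% of all genes) and 1 lower in WT (2.62%). In A3B KO against WT it gave 1 higher and 0 lower at PMA 2 h (1.63% each), and 2 higher and 0 lower at PMA 6 h (1.75% and 1.52%). Over all genes at PMA 2 h against DMSO, that measure called 345 higher and 618 lower in A3B KO (2210 and 2161 by rank), and 346 higher and 648 lower in WT (2274 and 2150 by rank). Ranked by −log10 q, 0 genes were higher in A3B KO and 1 in WT at PMA 6 h against PMA 2 h (12.7% and 14.2%). Ranked by pileup, 0 were higher there in A3B KO (10.7%), where ICAM1 came to 0.00, and 0 were lower in A3B KO against WT at PMA 6 h (10.8%). Among genes with a region in all 6 lists, 0 were higher and 2 lower in A3B KO at PMA 6 h against PMA 2 h (14.6% and 14.1%), and 2 were higher in A3B KO against WT at PMA 2 h (13.8%), TNFAIP3 and NFKB2 being absent from the DMSO lists. In the central 200 bp the κB consensus stood in 2 regions in A3B KO and 2 in WT in DMSO, and 5 in A3B KO and 4 in WT at PMA 2 h. At PMA 6 h it stood in 7 in A3B KO (13.0%) and 1 in WT (2.70%). Over the 6 lists it stood in 2.66% to 3.43% of regions at all coding genes. The A3B KO over WT ratio of TNFAIP3 ranged over the alternatives from 1.75 to 5.19 at PMA 2 h and from 1.32 to 5.27 at PMA 6 h. No paired analysis was possible because each condition is 1 library.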
